A study of Homo sapiens with 27 samples.

Results

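The transcripts of the mitochondrial ribosomal proteins were examined in 3 human diffuse large B cell lymphoma (DLBCL) lines after knockdown of SIRT3, the mitochondrial NAD-dependent protein deacetylase. A gene was a member when its symbol was MRPL or MRPS followed by a number and at most 1 of the letters A to C, which gave 78 of the 27115 listed genes, 49 named MRPL and 29 named MRPS. Karpas422 is a line of the OXPHOS subtype, which depends on mitochondrial respiration, OCI-Ly1 is of the germinal centre B cell subtype and HBL1 of the activated B cell subtype. Each line is 1 culture model, carried either a control hairpin (shCTRL) or one of 2 hairpins against SIRT3 (shSIRT3-1 and shSIRT3-2), delivered with a lentiviral vector, and was collected on day 8, with 3 libraries in each of 9 groups. The control hairpin is a scrambled sequence, so all groups, controls included, had been infected with the vector, which carries YFP and a puromycin resistance gene. The general lentiviral methods of the study give puromycin selection some days after infection. The knockdown is described as replicated, without saying whether the replicates were separate infections or cultures, so the p-values measure the spread between these libraries, which may be partly technical.

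The mitochondrial ribosome is built from RNAs encoded in mitochondrial DNA and from proteins encoded in the nucleus, which are made in the cytosol and imported. It makes the few core subunits of the respiratory chain and ATP synthase that mitochondrial DNA encodes. The large subunit joins amino acids and releases the chain through an exit tunnel, and the small subunit reads the mRNA. Names that start with MRPL mark large subunit proteins and names with MRPS mark small subunit proteins, except that the products of MRPS30 and MRPS18A sit in the large subunit. Some members have relatives in bacterial ribosomes and others occur only in mitochondria. MRPS36 is now regarded as a subunit of the 2-oxoglutarate dehydrogenase complex and was kept because its symbol matches.

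The libraries held between 28694398 and 53405456 reads on genes, with a median of 45669254. Values are CPM, that is reads of a gene relative to a library total set by the authors. SIRT3 was at 9.14 to 16.4 CPM in the 9 shCTRL libraries, at 1.06 to 2.79 CPM with shSIRT3-1 and at 2.84 to 6.24 CPM with shSIRT3-2. Within each line no knockdown library reached its controls. B cell markers summed to between 935 and 2130 CPM in every library, while T cell and myeloid markers each summed to at most 1.97 CPM and epithelial markers to at most 7.42 CPM, nearly all of it EPCAM in HBL1. Germinal centre markers summed to 361 to 1061 CPM in Karpas422 and OCI-Ly1 and to 63.7 to 181 CPM in HBL1, and activated B cell markers to 226 to 585 CPM in HBL1 and to 53.1 to 109 CPM in the other lines. LMO2 was near 0 in OCI-Ly1 and HBL1 and low in Karpas422, and MME was near 0 in HBL1. PRDM1, one of the activated B cell markers, was at 3.43 to 9.85 CPM in HBL1 and at 46.9 CPM in Karpas422 shSIRT3-2 replicate 3, where the other Karpas422 libraries were at 0.15 to 5.70 CPM. HBL1 shSIRT3-1 replicate 3 stood apart most, with correlations of 0.961 and 0.955 to its group, whose other 2 libraries correlated at 0.996. In every group of Karpas422 and HBL1, replicates 1 and 2 correlated more closely with each other than with replicate 3. In HBL1 shCTRL the values were 0.9976 against 0.9843 and 0.9872, and in Karpas422 shSIRT3-2 0.9975 against 0.9858 and 0.986. In OCI-Ly1 replicates 1 and 3 were the closest pair in each group.

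All 78 members had reads, and 77 reached 1 CPM in at least 3 libraries, the level required for testing. Across these 77 members and the 27 libraries, the reads per member ranged from 193 for MRPL36 to 11013 for MRPL2, with a median of 2298. MRPS24 was the exception, at 0.263 to 0.362 CPM in the shCTRL libraries of Karpas422, 0.590 to 0.995 CPM in those of OCI-Ly1 and 0.122 to 0.236 CPM in those of HBL1. Its exons lie within those of URGCP-MRPS24, a readthrough gene listed apart, so reads shared by both could not be assigned by this counting and its level is uncertain. In all, 15 of the 78 members have an exon that overlaps an exon of another listed gene, 3 of them on the same strand.

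In the shCTRL libraries, levels per kb of transcript spanned a wide range. MRPL51, a large subunit protein that occurs only in mitochondria, was highest at 66.4 CPM per kb over the 3 lines, followed by MRPL20 at 42.8 and MRPL53 at 40.8 CPM per kb. Exons of MRPL53 overlap those of CCDC142 on the same strand, where reads cannot be told apart, so its level is less certain. The lowest were MRPS24 at 0.673, MRPL42 at 2.41 and MRPS18C at 3.11 CPM per kb. The value of MRPL42 is divided by an annotated transcript of 15557 bases, against a median of 1260 bases over the tested members. The neighbours MRPL20 and MRPL53 did not keep 1 order over the lines. MRPL20 was at 35.8 CPM per kb in Karpas422 controls, 47.9 in those of OCI-Ly1 and 44.8 in those of HBL1, where MRPL53 was at 50.7, 37.8 and 34.0 CPM per kb.

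**Figure D1:**
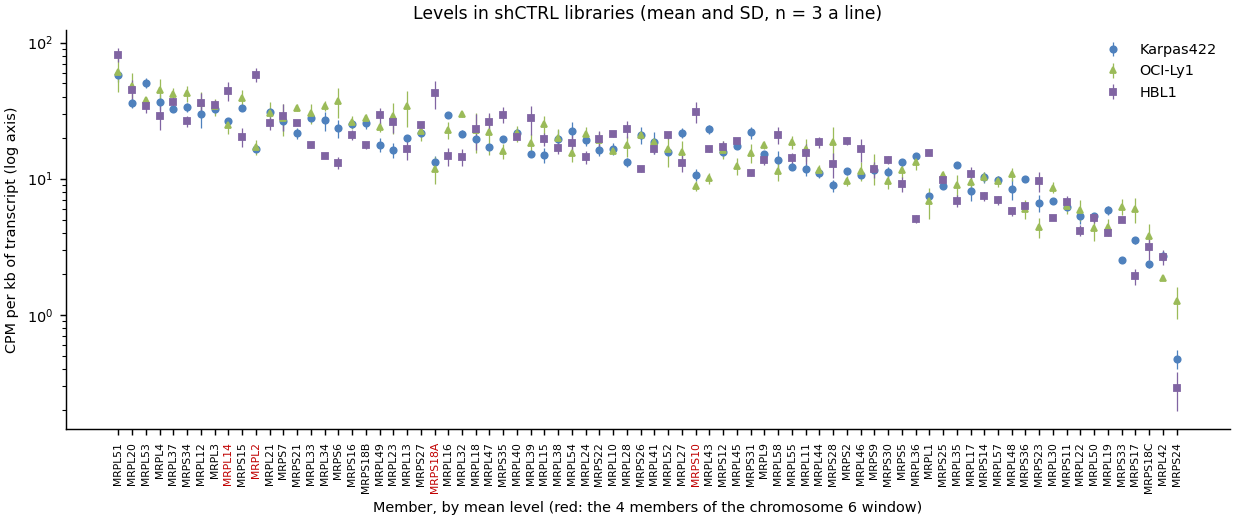
Level of each of the 78 members in the shCTRL libraries, in CPM per kb of transcript on a log axis, as mean and SD of 3 libraries for each line. MRPL51 is at the upper end, MRPS24 at the lower end, and the 4 members labelled in red lie in 1 window of chromosome 6 and are higher in HBL1 (squares).

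The lines differed in their members before any knockdown of SIRT3. Tests were made with limma on log2(CPM + 0.1), and a gene counts as called where its fold change exceeded 1.5 and its p, adjusted by Benjamini-Hochberg over all genes tested, was under 0.05. OCI-Ly1 controls differed from Karpas422 controls in 13 of 77 members, 10 higher and 3 lower, where 50.8% of all genes tested were called. HBL1 differed from Karpas422 in 28 members, 16 higher and 12 lower, and from OCI-Ly1 in 28, 13 higher and 15 lower, where 54.6% of all genes were called in each comparison. The members' share was thus below that of all genes in each of the 3 comparisons, as a description and with no test.

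Against Karpas422, the members with the largest rises in OCI-Ly1 were MRPS33 (log2 fold change 1.301, SE 0.12, adjusted p 4.1e-06), MRPS28 (1.03, SE 0.21, adjusted p 0.0016) and MRPL23 (0.81, SE 0.20, adjusted p 0.005). MRPS33 was at 10.1, 11.1 and 10.4 CPM in Karpas422, 29.5, 26.4 and 22.8 CPM in OCI-Ly1 and 21.1, 20.2 and 21.6 CPM in HBL1, with no overlap between Karpas422 and either other line. The largest falls in OCI-Ly1 were those of MRPL43 (-1.18, SE 0.12), MRPS36 (-0.74, SE 0.14) and MRPS23 (-0.60, SE 0.17). HBL1 had less MRPL36, MRPL16 and MRPS31 than Karpas422 (log2 fold changes of -1.52, -1.02 and -0.98). Against OCI-Ly1 it had less MRPS17, MRPS6 and MRPL36 (-1.60, -1.46 and -1.37). MRPL36, a small protein of the large subunit, was at 3.29, 3.03 and 2.87 CPM in HBL1 controls and at 8.83, 9.36 and 8.78 CPM in Karpas422 controls.

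The 3 members with the largest rises in HBL1 were the same against both other lines and lie close together. MRPL2, which helps form the catalytic centre of the large subunit, was at 76.3, 74.3 and 60.98 CPM in HBL1 controls, against 20, 19.8 and 20.1 CPM in Karpas422 and 22.8, 21.9 and 17.6 CPM in OCI-Ly1. Its log2 fold change was 1.81 (SE 0.13, adjusted p 3.8e-07) against Karpas422 and 1.76 (SE 0.13, adjusted p 5.1e-07) against OCI-Ly1. MRPS18A was higher by 1.65 (SE 0.21) and 1.84 (SE 0.21), and MRPS10, a protein of the head of the small subunit, by 1.52 (SE 0.15) and 1.79 (SE 0.15). In hg19 coordinates MRPS10 lies at chr6:42174545-42185599, MRPL2 at chr6:43021767-43027176 and MRPS18A at chr6:43638939-43655528. MRPL14, at chr6:44081188-44095189, was higher in HBL1 by 0.73 (adjusted p 0.00095) and 0.83 (adjusted p 0.00039). MRPS18B, elsewhere on this chromosome at chr6:30585617-30594172, was lower in HBL1 by 0.54 and 0.67 on the log2 scale, and MRPL18, at chr6:160210844-160219468, had log2 fold changes of 0.19 and 0.02. The window was chosen after these values were seen. It also holds 28 other tested genes, of which 24 were above 0 in HBL1 against Karpas422, with a median log2 fold change of 1.46, and 27 against OCI-Ly1, with a median of 1.78. The other 560 tested genes of chromosome 6 had medians of -0.32 and -0.01, and in OCI-Ly1 against Karpas422 the genes of the window had a median of -0.14. The higher level of these members in HBL1 was thus shared by most genes around them.

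Promoters were compared because genes of mitochondrial biogenesis are known to carry sites for NRF1, for ETS factors such as GABPA and for YY1. RefSeq gave promoter sequences of 250 bases before to 50 after the start (GRCh38.p14) for 69 of the 78 members. On either strand, CCGGAAG (the ETS family core) was found in 29 of 69 members, or 42.03%, against 10.7% of all 27305 promoters and 19.9% of those of genes past the filter. AAGATGGC (YY1) was found in 20 members, or 29.0%, against 3.03% and 5.64%. CGCATGCG (NRF1) was found in 3 members, or 4.35%, against 2.19% and 3.98%. GGGCGG (SP1) was present in 60.9% of members, between the 44.6% of all promoters and the 69.4% of those of genes past the filter. CACGTG (E-box) was found in 8.70% of members, against 7.43% and 10.3%, and TGATGNAA (the composite site of ATF4 and C/EBP) in 1 member, or 1.45%, against 3.67% and 1.76%. CACGTG and CGCATGCG read the same on both strands, and overlap between matches of different motifs was not looked for. The ETS matches of members lay mainly before the start, 30 of 39, and the YY1 matches mainly after it, 15 of 21.

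Matches were present in members that rose and in members that fell after knockdown, described later in the text. The 150 bases before the start are shown for 2 members that rose with both hairpins (MRPL20 and MRPL17), 2 that fell with both (MRPS10 and MRPL22) and MRPL30, which fell with shSIRT3-1. Capitals mark CCGGAAG or its reverse complement in MRPL20, MRPS10 and MRPL30, and CGCATGCG in MRPL17 and MRPL22.
MRPL20, chr1:1407294-1407443, minus strand: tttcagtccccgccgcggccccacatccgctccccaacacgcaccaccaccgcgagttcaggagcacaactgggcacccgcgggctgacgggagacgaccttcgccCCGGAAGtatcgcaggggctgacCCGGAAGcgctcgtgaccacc
MRPL17, chr11:6683341-6683490, minus strand: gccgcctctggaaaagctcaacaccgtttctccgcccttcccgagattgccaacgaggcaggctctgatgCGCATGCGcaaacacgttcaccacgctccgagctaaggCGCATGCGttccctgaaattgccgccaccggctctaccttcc
MRPS10, chr6:42217862-42218011, minus strand: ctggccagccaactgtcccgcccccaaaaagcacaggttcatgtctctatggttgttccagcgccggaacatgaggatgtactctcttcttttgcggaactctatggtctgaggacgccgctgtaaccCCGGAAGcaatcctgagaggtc
MRPL22, chr5:154940923-154941072, plus strand: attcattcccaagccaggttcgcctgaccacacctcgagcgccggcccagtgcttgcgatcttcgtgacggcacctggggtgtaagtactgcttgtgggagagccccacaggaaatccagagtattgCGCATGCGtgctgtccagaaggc
MRPL30, chr2:99181034-99181183, plus strand: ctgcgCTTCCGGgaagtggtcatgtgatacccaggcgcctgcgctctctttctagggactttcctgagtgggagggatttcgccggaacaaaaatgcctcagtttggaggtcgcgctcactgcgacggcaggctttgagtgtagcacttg

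Stretches of 30 bases around the YY1 match, in capitals, are shown for MRPS7 and MRPL38, which rose with both hairpins, and for MRPS18B and MRPL42, which fell with both.
MRPS7, chr17:75261887-75261916, plus strand: cgtggccagccAAGATGGCtgcccccgcag
MRPL38, chr17:75904860-75904889, minus strand: aggccggagggAAGATGGCggcgccctggt
MRPS18B, chr6:30617852-30617881, plus strand: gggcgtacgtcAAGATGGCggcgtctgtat
MRPL42, chr12:93467511-93467540, plus strand: aggattgaaacAAGATGGCgggttcgtggt
Of the 9 members that rose with both hairpins, 3 held the ETS letters, 3 the YY1 letters and 1 the NRF1 letters. Of the 6 that fell with both, 5 had a promoter in the table, and 1, 4 and 1 of them held these letters. A match describes the letters in this window and shows no binding.

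After knockdown the members moved in both directions and by little. In a fit over the 27 libraries with terms for line and hairpin, 23 of 77 members rose and 9 fell with shSIRT3-1 (adjusted p under 0.05), where 15.6% of all genes tested rose and 22.3% fell. With shSIRT3-2, 15 rose and 16 fell, where 16.3% of all genes rose and 21.7% fell. The median log2 fold change of the members was 0.09 with shSIRT3-1 and 0.005 with shSIRT3-2, beside -0.05 and -0.03 over all 13076 genes tested. Both hairpins share the shCTRL libraries, so their values are not independent.

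At a fold change above 1.5 few members were called. MRPL30 and MRPL49 were called with shSIRT3-1, both lower, where 13.0% of all genes were called. None was called with shSIRT3-2, where 13.5% of all genes were called, although 36 members had an unadjusted p under 0.05 at any fold, as 47.0% of all genes did, 0 of the 36 past the fold. The edgeR quasi-likelihood test on reads recovered from the values called 1 and 0, where it called 14.4% and 15.3% of all genes. No member was called with both hairpins in the same direction, where 5.09% of all genes were, while 20 had an unadjusted p under 0.05 with both in the same direction, as 24.2% of all genes did. The range from the lower to the upper quartile of log2 fold changes was 0.32 wide for members and 0.49 for all genes with shSIRT3-1, and 0.33 and 0.49 with shSIRT3-2.

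**Figure D2:**
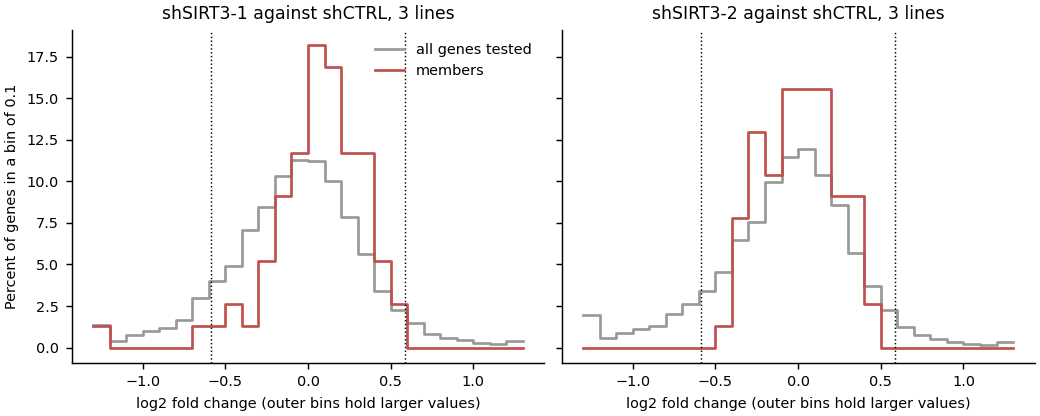
Percent of genes in bins of 0.1 of the log2 fold change against shCTRL over 3 lines, for the 77 tested members and all 13076 genes tested, with each hairpin. Dotted lines mark a fold change of 1.5, past which 2 members lie with shSIRT3-1 and 0 with shSIRT3-2.

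By subunit, 18 of the 49 MRPL members rose and 6 fell with shSIRT3-1, with a median log2 fold change of 0.12, and 5 of the 28 tested MRPS members rose and 3 fell, with a median of 0.05. With shSIRT3-2, 9 MRPL members rose and 10 fell, and 6 MRPS members rose and 6 fell, with medians of 0.05 and -0.03. Under quantile normalization the split for shSIRT3-1 became 34 members higher and 7 lower, with the median of the members at 0.15 in place of 0.09. The median of all genes was then 0.03 in place of -0.05, and all genes split 2900 higher and 2338 lower in place of 2039 and 2922. For shSIRT3-2 all genes then split 2694 higher and 2173 lower in place of 2135 and 2842. With a correction for GC content and transcript length, the split for shSIRT3-2 became 19 higher and 12 lower. In that fit of 11996 genes, 9.12% of all genes rose and 8.94% fell with both hairpins, in place of 7.65% and 10.5%. No split of all genes with shSIRT3-2 alone is given for it.

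**Figure D3:**
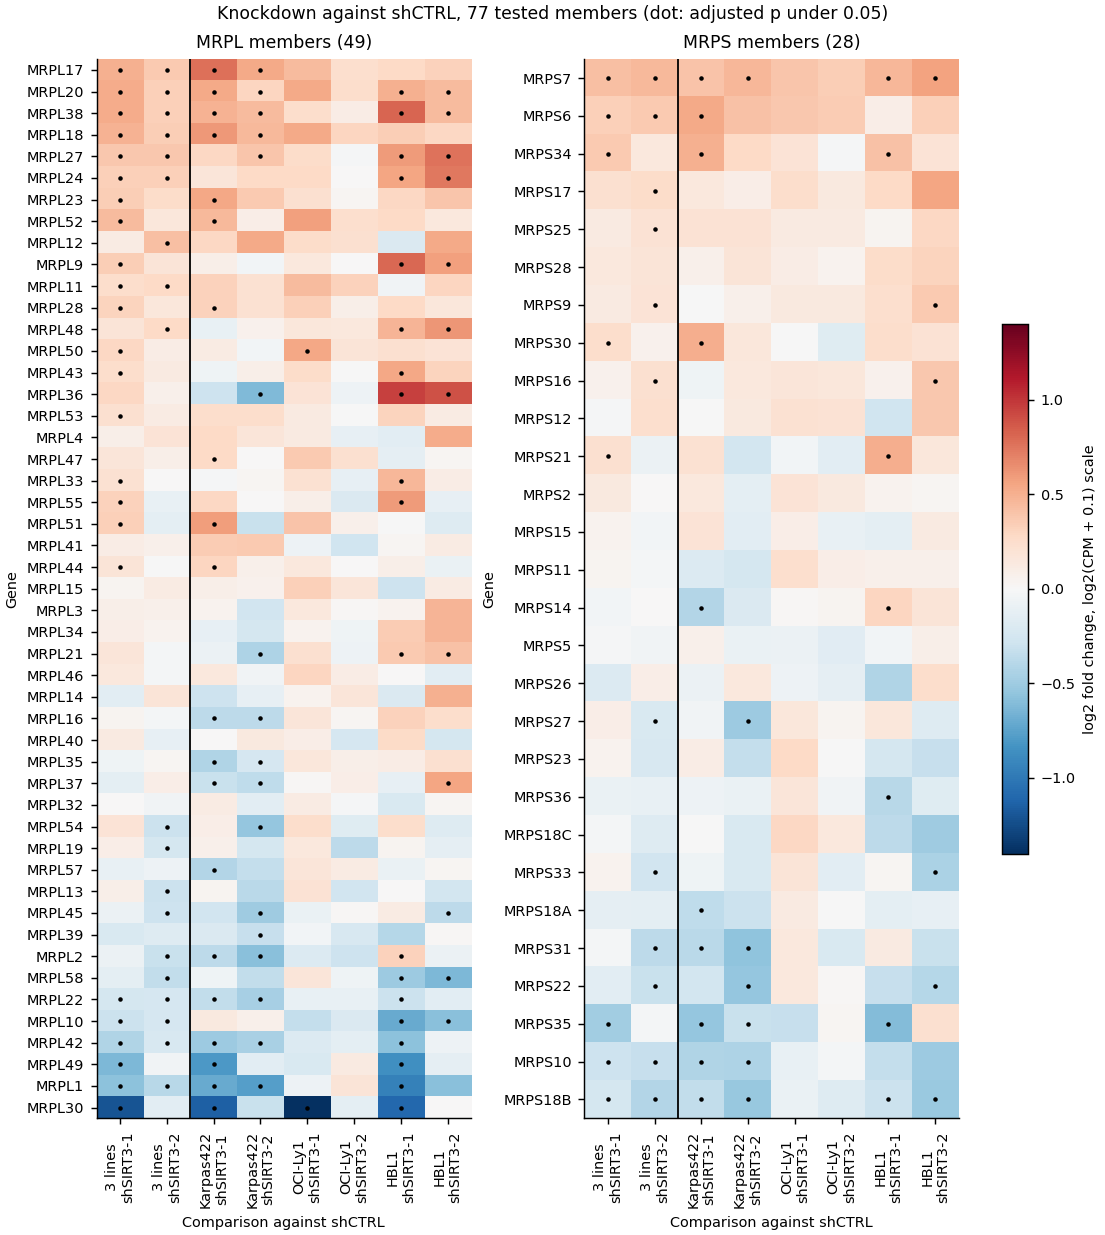
log2 fold change against shCTRL of the 77 tested members (rows, MRPL left and MRPS right, ordered by the mean of the 2 hairpins over 3 lines) in 8 comparisons (columns). Red is higher and blue lower than shCTRL, and a dot marks an adjusted p under 0.05. The MRPL30 row is blue with shSIRT3-1 in each line and pale with shSIRT3-2.

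Members that rose with each hairpin numbered 9, where 7.65% of all genes did so. Without OCI-Ly1 shCTRL replicate 1 they numbered 16, where 8.93% of all genes did so. Under quantile normalization 16 rose with both hairpins, with the split of all genes for each hairpin given above. With a correction for GC content and length 13 did, where 9.12% of all genes did so. The 9 members were MRPL11, MRPL17, MRPL18, MRPL20, MRPL24, MRPL27, MRPL38, MRPS6 and MRPS7. MRPL20 is an rRNA-binding protein of the large subunit. In Karpas422 it was at 26.7, 22.8 and 25.8 CPM in the shCTRL libraries, 35.7, 33.99 and 39.1 CPM with shSIRT3-1 and 33.03, 31.8 and 28.01 CPM with shSIRT3-2. In OCI-Ly1 it was at 42.9, 27.9 and 29.7 CPM in the shCTRL libraries, 49.5, 46.7 and 46.9 CPM with shSIRT3-1 and 41.04, 39.2 and 37.2 CPM with shSIRT3-2. In HBL1 it was at 35.5, 33.4 and 25.2 CPM in the shCTRL libraries, 42.9, 42.9 and 46.2 CPM with shSIRT3-1 and 43.9, 42.3 and 40.4 CPM with shSIRT3-2. Each knockdown library lay above its controls in Karpas422 and HBL1 and with shSIRT3-1 in OCI-Ly1, where the shSIRT3-2 libraries lay above shCTRL replicates 2 and 3 and below shCTRL replicate 1. MRPL20 rose by 0.52 (SE 0.07, adjusted p 7.6e-06) with shSIRT3-1 and 0.33 (SE 0.07, adjusted p 0.0012) with shSIRT3-2.

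MRPS7 is a protein of the head of the small subunit near the tRNA exit site. It was at 31.9, 27.1 and 36.9 CPM in the shCTRL libraries, 39.5, 39.7 and 46.4 CPM with shSIRT3-1 and 42.9, 42.8 and 46.1 CPM with shSIRT3-2 in Karpas422. It was at 43.6, 27.3 and 30 CPM in the shCTRL libraries, 45.1, 44.7 and 40.1 CPM with shSIRT3-1 and 42.1, 43.7 and 39.4 CPM with shSIRT3-2 in OCI-Ly1. It was at 42.5, 34.4 and 26.98 CPM in the shCTRL libraries, 49.04, 45.6 and 46.5 CPM with shSIRT3-1 and 53.1, 50.6 and 47.4 CPM with shSIRT3-2 in HBL1. All knockdown libraries of Karpas422 and HBL1 lay above their controls, and in OCI-Ly1 shCTRL replicate 1 lay among the knockdown libraries. MRPS7 rose by 0.42 (SE 0.08, adjusted p 0.00037) with shSIRT3-1 and 0.46 (SE 0.08, adjusted p 0.00017) with shSIRT3-2. It shares exonic sequence with MIF4GD on the other strand, which fell by 1.37 and 0.77 on the log2 scale.

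MRPL38, a large subunit protein found only in mitochondria, rose by 0.52 (SE 0.09) with shSIRT3-1 and 0.33 (SE 0.09) with shSIRT3-2, and in HBL1 it was at 25.3, 22.6 and 20.99 CPM in the controls and 35.1, 36.7 and 51.5 CPM with shSIRT3-1. MRPL17, at the rim of the exit tunnel, rose by 0.50 (SE 0.10) and 0.36 (SE 0.10), and MRPL18, a protein of the central protuberance, by 0.49 (SE 0.10) and 0.35 (SE 0.10). MRPL27, near the catalytic centre, rose by 0.38 with each hairpin (SE 0.10 each). MRPL24, at the tunnel exit, rose by 0.33 and 0.34 (SE 0.09 each), MRPS6, of the platform of the small subunit, by 0.34 and 0.37 (SE 0.09 each), and MRPL11, at the base of the stalk, by 0.24 and 0.28 (SE 0.09 each). Exons of MRPS6 overlap those of SLC5A3, a myo-inositol transporter, on the same strand, where reads cannot be told apart, and SLC5A3 had log2 fold changes of 0.19 (adjusted p 0.258) and 0.53 (adjusted p 0.0026). In the single lines 13 members were above 0 in all 6 comparisons, 7 of these 9 among them, with MRPL11 and MRPL27 below 0 in at least 1.

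**Figure D4:**
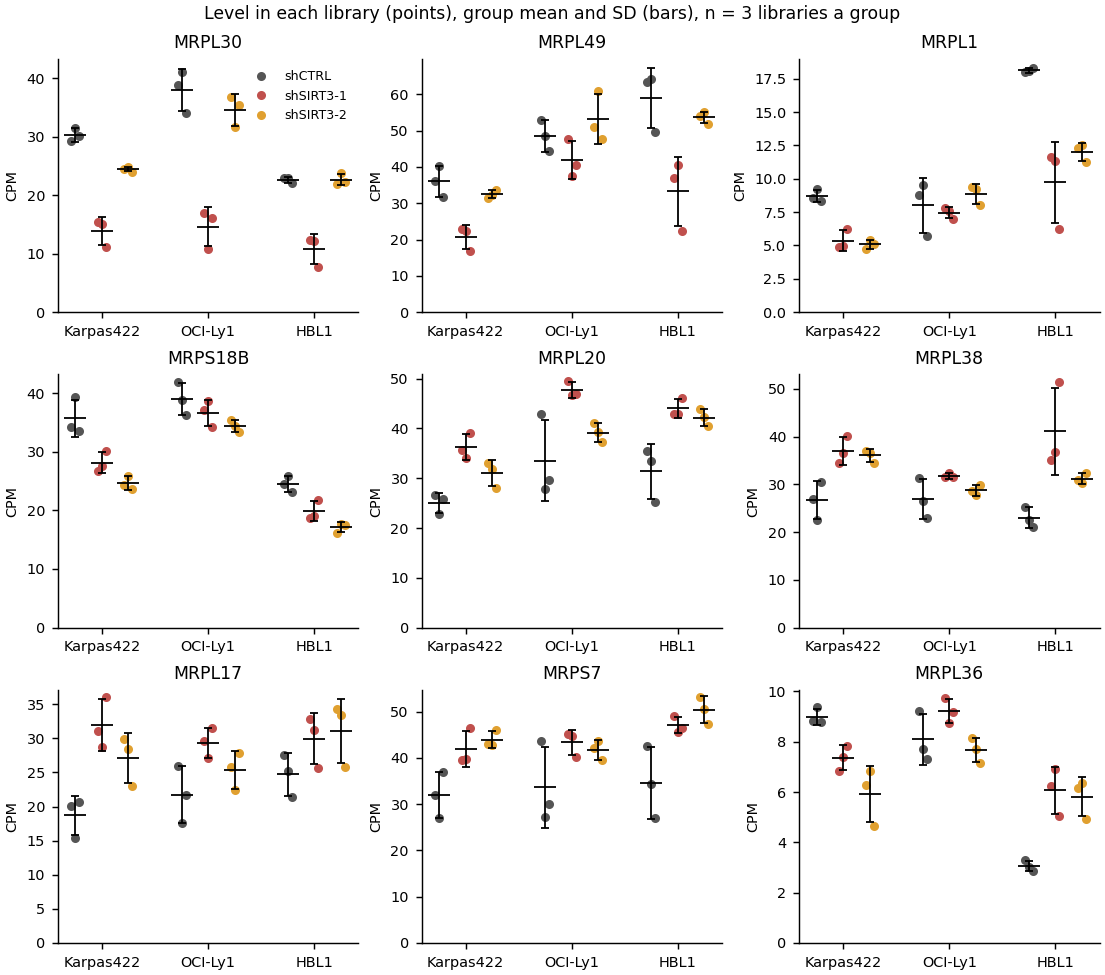
CPM of 9 members in each of the 27 libraries (points), with group means and SD (bars, n = 3), by line and hairpin. MRPL30 is low in all 9 shSIRT3-1 libraries, MRPS7 and MRPL20 are higher with both hairpins in Karpas422 and HBL1, and MRPL36 is lower than the controls in Karpas422 and higher in HBL1.

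Members that fell with each hairpin numbered 6, where 10.5% of all genes did so. They were MRPL1, MRPL10, MRPL22, MRPL42, MRPS10 and MRPS18B. With a correction for GC content and length 2 fell with both, and without HBL1 shCTRL replicate 2, the shallowest library, 3 did, where 8.94% and 8.69% of all genes fell with both. Under quantile normalization 3 fell with both, while 16 rose with both. MRPS18B is a small subunit protein. It was at 34.2, 39.4 and 33.6 CPM in the shCTRL libraries, 26.6, 27.6 and 30.1 CPM with shSIRT3-1 and 24.4, 25.9 and 23.7 CPM with shSIRT3-2 in Karpas422. It was at 24.5, 25.9 and 23.1 CPM in the shCTRL libraries, 18.6, 19.1 and 21.8 CPM with shSIRT3-1 and 16.1, 17.7 and 17.5 CPM with shSIRT3-2 in HBL1. In both lines all knockdown libraries lay below the controls. In OCI-Ly1 it was at 41.9, 38.8 and 36.3 CPM in the shCTRL libraries, 37.1, 38.7 and 34.3 CPM with shSIRT3-1 and 35.5, 34.4 and 33.5 CPM with shSIRT3-2, so that the shSIRT3-1 libraries overlapped the controls and the shSIRT3-2 libraries lay below them. MRPS18B fell by 0.25 (SE 0.06, adjusted p 0.0022) and 0.41 (SE 0.06, adjusted p 1.3e-05) on the log2 scale with shSIRT3-1 and shSIRT3-2.

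MRPL1 belongs to the stalk beside the tRNA exit site. In Karpas422 it was at 8.56, 9.23 and 8.34 CPM in the shCTRL libraries, 4.88, 4.93 and 6.25 CPM with shSIRT3-1 and 4.72, 5.43 and 5.09 CPM with shSIRT3-2. In HBL1 it was at 17.99, 18.1 and 18.3 CPM in the shCTRL libraries, 11.7, 11.3 and 6.20 CPM with shSIRT3-1 and 12.3, 12.5 and 11.3 CPM with shSIRT3-2, and in both lines all knockdown libraries lay below the controls, although shSIRT3-2 did not pass in HBL1 alone (adjusted p 0.064). In OCI-Ly1 it was at 8.81, 9.52 and 5.69 CPM in the shCTRL libraries, 7.81, 7.58 and 7 CPM with shSIRT3-1 and 9.36, 9.24 and 8.03 CPM with shSIRT3-2, which overlapped. Over 3 lines MRPL1 fell by 0.57 (SE 0.14, adjusted p 0.0021) and 0.39 (SE 0.14, adjusted p 0.027). Its response differed between lines (adjusted p of the interaction 0.022). MRPL42 fell by 0.43 (SE 0.08) and 0.22 (SE 0.08), MRPL10, the base of the factor-binding stalk, by 0.30 and 0.24 (SE 0.09 each), MRPS10 by 0.29 and 0.33 (SE 0.09 each), and MRPL22, which lines the exit tunnel, by 0.25 and 0.24 (SE 0.08 each). Without HBL1, MRPL10 passed with neither hairpin (log2 fold changes of -0.10 and -0.067, adjusted p 0.43 and 0.60). With shSIRT3-2, MRPL10 missed the threshold in 16 of the 45 alternatives run, MRPL42 in 14 and MRPL1 in 11.

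The 2 hairpins differed directly in 19 of 77 members, 14 lower and 5 higher with shSIRT3-2 than with shSIRT3-1, where 31.7% of all genes differed. MRPL30, a large subunit protein with a bacterial relative, differed most. It was at 29.3, 31.6 and 30.2 CPM in the shCTRL libraries, 15.4, 15.03 and 11.1 CPM with shSIRT3-1 and 24.6, 24.9 and 24.1 CPM with shSIRT3-2 in Karpas422. It was at 38.9, 41.1 and 34.1 CPM in the shCTRL libraries, 16.9, 10.8 and 16.1 CPM with shSIRT3-1 and 36.8, 31.6 and 35.4 CPM with shSIRT3-2 in OCI-Ly1. It was at 22.95, 22.9 and 22.1 CPM in the shCTRL libraries, 12.3, 12.3 and 7.80 CPM with shSIRT3-1 and 21.9, 23.8 and 22.3 CPM with shSIRT3-2 in HBL1. No shSIRT3-1 library reached a shCTRL or shSIRT3-2 library of its line. The shSIRT3-2 libraries lay below the controls in Karpas422 and overlapped them in the other lines. MRPL30 fell by 1.21 (SE 0.10, adjusted p 2e-09) with shSIRT3-1 and had a log2 fold change of -0.15 (SE 0.10, adjusted p 0.24) with shSIRT3-2, a difference of 1.06 (SE 0.10, adjusted p 1.3e-08). Its log2 fold change with shSIRT3-1 was between -1.31 and -1.08 over the alternatives run. The gene lies at chr2:99797615-99816024 in hg19, and the hairpin sequences were not used here.

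MRPL49 is a large subunit protein found only in mitochondria. It was at 36.2, 40.3 and 31.7 CPM in the shCTRL libraries, 22.8, 22.2 and 16.9 CPM with shSIRT3-1 and 31.6, 32.2 and 33.7 CPM with shSIRT3-2 in Karpas422. It was at 63.3, 64.2 and 49.6 CPM in the shCTRL libraries, 36.9, 40.5 and 22.4 CPM with shSIRT3-1 and 54.02, 55.04 and 51.9 CPM with shSIRT3-2 in HBL1. In both lines the shSIRT3-1 libraries lay below the controls, while in OCI-Ly1 they overlapped, at 52.9, 48.5 and 44.3 CPM and 47.8, 37.6 and 40.5 CPM. Over 3 lines MRPL49 fell by 0.63 (SE 0.11, adjusted p 7.1e-05) with shSIRT3-1 and had a log2 fold change of -0.05 (SE 0.11) with shSIRT3-2, a difference of 0.58 (adjusted p 0.00023). Without HBL1 shSIRT3-1 replicate 3 the fall was by 0.54 and without Karpas422 shSIRT3-1 replicate 3 by 0.58, under the fold required, with adjusted p of 4.3e-05 and 0.00021. MRPL49 lies at chr11:64889655-64894843, where its exons overlap SYVN1 on the other strand, which had log2 fold changes of 0.18 and -0.44.

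MRPS35, a small subunit protein found only in mitochondria, fell by 0.49 with shSIRT3-1 and was higher with shSIRT3-2 than with shSIRT3-1 by 0.47 (SE 0.09, adjusted p 0.00045). MRPL14 and MRPS16 were also higher with shSIRT3-2, by 0.33 and 0.17. Among the 14 members lower with shSIRT3-2 were MRPL54 (-0.49, SE 0.08, adjusted p 4.2e-05), MRPL51 (-0.47, SE 0.11, adjusted p 0.0015) and MRPL55 (-0.43, SE 0.10, adjusted p 0.0023). MRPL51 rose by 0.33 with shSIRT3-1 and had a log2 fold change of -0.14 with shSIRT3-2. In Karpas422 it was at 56.8, 52.6 and 45.7 CPM in the shCTRL libraries, 77, 73.5 and 81.8 CPM with shSIRT3-1 and 44.5, 48.5 and 32.7 CPM with shSIRT3-2. The shSIRT3-1 libraries were all above the controls there, and the shSIRT3-2 libraries overlapped them.

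In Karpas422 alone, 30 members passed with shSIRT3-1, 14 higher and 16 lower, where 33.7% of all genes passed, and 24 with shSIRT3-2, 6 higher and 18 lower, where 31.1% passed. Past the fold were 6 and 2 members, where 16.0% and 15% of all genes were called. The 6 members with shSIRT3-1 were MRPL17 (0.77), MRPL18 (0.60) and MRPL51 (0.59), higher, and MRPL1 (-0.70), MRPL30 (-1.14) and MRPL49 (-0.81), lower. The 2 were MRPL1 (-0.77) and MRPL36 (-0.61). By edgeR 10 members were called with shSIRT3-1, where it called 15.4% of all genes. The count of 2 rose to 4 without shCTRL replicate 1, to 5 without shCTRL replicate 3 and to 5 without shSIRT3-2 replicate 2, where 13.2%, 15.6% and 15.2% of all genes were called. The count of 30 fell to between 17 and 19 without shCTRL replicate 1 or 2 or shSIRT3-1 replicate 1 or 3, where 22.0% to 25.5% of all genes passed. Without replicate 3 of all groups, 37 and 41 members passed with shSIRT3-1 and shSIRT3-2, where 41.7% of all genes passed with each. Without replicate 1 of all groups, 2 and 0 passed, where 7.04% and 5.27% did. Without replicate 2 of all groups, 6 and 4 passed, where 11.4% and 9.82% did.

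In HBL1 alone, 26 members passed with shSIRT3-1, 16 higher and 10 lower, where 40.0% of all genes passed, and 18 with shSIRT3-2, 12 higher and 6 lower, where 34.7% passed. Past the fold were 10 and 5, where 27.7% and 23.5% of all genes were called. MRPL27 (0.59 and 0.76) and MRPL36 (0.95 and 0.90) were called higher with both. The other calls with shSIRT3-1 were MRPL9 (0.80), MRPL38 (0.82) and MRPL55, higher, and MRPL1 (-0.94), MRPL10 (-0.70), MRPL30 (-1.09), MRPL49 (-0.86) and MRPS35 (-0.61), lower. Those with shSIRT3-2 were MRPL24 (0.73) and MRPL48, higher, and MRPL58, a release factor built into the large subunit, lower. Median-ratio scaling gave 10 calls with shSIRT3-2, and edgeR gave 8, where edgeR called 24.0% of all genes. No share of all genes is given for median-ratio scaling, so its 10 calls are not read against all genes. Without shSIRT3-1 replicate 3, which stood apart from its group, 8 of the 10 calls with shSIRT3-1 were kept, and MRPL55 (0.38, from 0.60) and MRPS35 (-0.44, from -0.61) were under the fold. Members that passed in that fit numbered 31 with shSIRT3-1 and 36 with shSIRT3-2, where 46.9% and 53.2% of all genes passed. With shSIRT3-2, 10 passed without shCTRL replicate 2 and 9 without shSIRT3-2 replicate 1 or 2, where 21.5%, 21.1% and 23.9% of all genes passed. With shSIRT3-1, 17 passed without shCTRL replicate 1 and 13 without shCTRL replicate 2, where 27.2% and 24.5% of all genes passed. Without replicate 3 of all groups, 44 and 52 members passed with shSIRT3-1 and shSIRT3-2, where 66.5% and 65.4% of all genes passed. Without replicate 1 of all groups, 1 and 0 passed, where 4.36% and 2.88% did. Without replicate 2 of all groups, 3 and 0 passed, where 11.1% and 5.22% did.

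In OCI-Ly1 alone, 2 members passed with shSIRT3-1, MRPL30 lower (-1.396, SE 0.16, adjusted p 0.0054) and MRPL50 higher, where 7.31% of all genes passed and 4.50% were called. MRPL30 was the only member called. With shSIRT3-2 no member passed, where 9.42% of all genes passed and 6.41% were called. By limma 2 members had an unadjusted p under 0.05 there, as 28.9% of all genes did, and edgeR passed 0, where it passed 10.7% of all genes. Without shCTRL replicate 1, whose members summed to 2308 CPM against 1901 and 1810 CPM in the other controls, 20 members passed with shSIRT3-1, 9 of them past the fold, where 19.9% of all genes passed and 10.1% were called in that fit. With shSIRT3-2, 8 passed there, where 21.5% of all genes did. Without shCTRL replicate 2, 1 passed with shSIRT3-2, where 4.12% of all genes did. With shSIRT3-1, 1 passed without shCTRL replicate 2 or 3, without any 1 of the shSIRT3-1 libraries, or without shSIRT3-2 replicate 1 or 3, where 0.332% to 3.74% of all genes passed. With a replicate block, 8 passed with shSIRT3-1 and 1 with shSIRT3-2, and no share of all genes is given for that fit.

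The response differed between lines in 23 of 77 members by the F test of interaction terms, where 41.8% of all genes differed. MRPL36 differed most (adjusted p 0.00011). In Karpas422 it was at 8.83, 9.36 and 8.78 CPM in the shCTRL libraries, 6.84, 7.41 and 7.85 CPM with shSIRT3-1 and 6.27, 6.82 and 4.67 CPM with shSIRT3-2. In HBL1 it was at 3.29, 3.03 and 2.87 CPM in the shCTRL libraries, 6.26, 6.90 and 5.03 CPM with shSIRT3-1 and 6.17, 6.34 and 4.94 CPM with shSIRT3-2. All knockdown libraries thus lay below the controls in Karpas422 and above them in HBL1, with log2 fold changes of -0.29 (adjusted p 0.15) and -0.61 (adjusted p 0.011) in the first and 0.95 (SE 0.16, adjusted p 0.0024) and 0.90 (SE 0.16, adjusted p 0.0036) in the second. In OCI-Ly1 they were 0.19 and -0.07, neither past the test.

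MRPL10 followed (adjusted p of the interaction 0.00091), with 38.2, 38.6 and 35.1 CPM in the shCTRL libraries, 23.5, 23.8 and 21.3 CPM with shSIRT3-1 and 25.7, 24.5 and 24.4 CPM with shSIRT3-2 in HBL1. In Karpas422 it was at 30.6, 25.8 and 30.8 CPM in the shCTRL libraries, 30.8, 30.4 and 34.1 CPM with shSIRT3-1 and 30.1, 28.5 and 32.8 CPM with shSIRT3-2, which overlapped. MRPL9, a large subunit protein with a bacterial relative, rose by 0.80 (SE 0.12) and 0.57 (SE 0.12) in HBL1, from 17.99, 16.9 and 15.3 CPM to 26.3, 27.5 and 34.3 CPM and 24.1, 24.2 and 26.4 CPM, and had log2 fold changes of 0.08 and -0.04 in Karpas422 (adjusted p of the interaction 0.0012). MRPS14, of the head of the small subunit, fell by 0.41 in Karpas422 and rose by 0.30 in HBL1 with shSIRT3-1 (adjusted p of the interaction 0.0029). MRPL37, a large subunit protein found only in mitochondria, fell by 0.31 and 0.35 in Karpas422 and rose by 0.55 with shSIRT3-2 in HBL1 (adjusted p of the interaction 0.0064). The median log2 fold change of the members in Karpas422 was 0.04 with shSIRT3-1 and -0.10 with shSIRT3-2, beside -0.08 and -0.001 over all genes. For OCI-Ly1 it was 0.16 and 0.01, beside 0.02 and 0.005, and for HBL1 0.06 and 0.13, beside -0.11 and -0.06. Over the 6 comparisons, 25 of the 77 members rose at least once and never fell, 22 fell at least once and never rose, and 25 passed in none, beside 29.6%, 38.0% and 25.7% of the 10014 genes tested in all 6. MRPL2, MRPL21, MRPL36, MRPL37 and MRPS14 rose at least once and fell at least once, as 6.70% of these genes did. For MRPL2 and MRPS14 the only rise was in HBL1 with shSIRT3-1. Without the HBL1 shSIRT3-1 library that stood apart from its group, neither rise passed by limma. The log2 fold changes were then 0.24 (adjusted p 0.087) for MRPL2 and 0.23 (adjusted p 0.062) for MRPS14. MRPL21 and MRPL36 still rose in that fit (adjusted p 0.016 and 0.00059).

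The summed level of the 78 members moved within the spread of the libraries in most groups. It was 1884 ± 37 CPM (SD, n = 3) in Karpas422 shCTRL, 1932 ± 14 with shSIRT3-1 and 1799 ± 147 with shSIRT3-2. In the last group replicate 3, the library with PRDM1 at 46.9 CPM, was at 1630 CPM and the others at 1868 and 1898 CPM. In OCI-Ly1 it was 2006 ± 265, 2197 ± 145 and 2032 ± 71.0 CPM, and in HBL1 2050 ± 215, 2092 ± 123.2 and 2203 ± 56.6 CPM. CPM are relative to a library total, so these sums do not give an amount per cell. In a bulk sample, a change in all cells and a change in part of the cells cannot be told apart. The ratio of summed MRPL to summed MRPS CPM stayed between 1.56 and 1.75 over the 27 libraries. In HBL1 it was 1.57 to 1.64 in the controls, 1.65 to 1.66 with shSIRT3-1 and 1.72 to 1.75 with shSIRT3-2, with no overlap, while in the other lines the ranges overlapped.

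**Figure D5:**
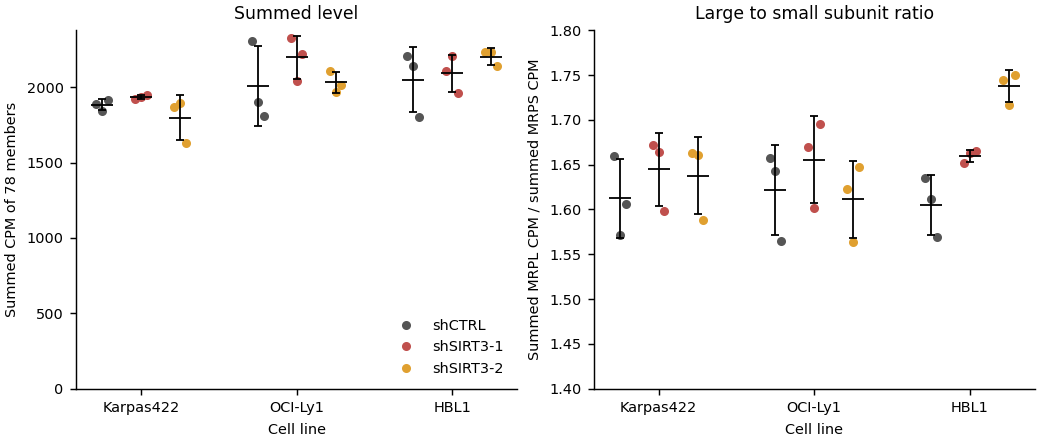
Left, summed CPM of the 78 members in each library. Right, ratio of summed MRPL to summed MRPS CPM on an axis that starts at 1.4. Points are libraries and bars group means and SD (n = 3). The ratio of HBL1 with shSIRT3-2 is at 1.72 to 1.75, above all other libraries.

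Genes that act with the mitochondrial ribosome also moved in both directions. Of 5 mitoribosome proteins named otherwise, 4 rose and 0 fell with shSIRT3-1 and 1 rose with shSIRT3-2, GADD45GIP1, a large subunit protein, at 0.47 and 0.39. Of 26 assembly and rRNA maturation factors, 8 rose and 3 fell with shSIRT3-1 and 6 rose and 8 fell with shSIRT3-2. Among them the GTPase MTG1 rose by 0.38 and 0.35, and the GTPase GTPBP10 fell by 0.38 and 0.56. Of 16 translation factors and mRNA partners, 4 rose and 4 fell, and 2 rose and 5 fell, with SLIRP, a partner of mitochondrial mRNA, rising by 0.43 and 0.37 and C12orf65, a release factor, at -0.26 (adjusted p 0.094) and falling by 0.40. Of 16 genes that express mitochondrial DNA, 6 rose and 1 fell, and 4 rose and 1 fell. TRMT10C, which processes mitochondrial tRNA, rose by 0.51 and 0.30, and TFAM, which packages mitochondrial DNA, fell by 0.55 with shSIRT3-1 and had a log2 fold change of 0.08 with shSIRT3-2 (adjusted p 0.68).

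Among 10 regulators of nuclear genes for mitochondria, 3 rose and 3 fell with shSIRT3-1 and 2 rose and 4 fell with shSIRT3-2. ATF4, the transcription factor of the integrated stress response, was called with both hairpins (-0.91, SE 0.15, adjusted p 5.3e-05, and -1.03, SE 0.15, adjusted p 1.4e-05). PPRC1, a coactivator of mitochondrial biogenesis, rose by 0.59 and 0.49. Of 83 cytosolic ribosomal proteins, 36 rose and 3 fell with shSIRT3-1, with a median of 0.17, and 7 rose and 4 fell with shSIRT3-2, with a median of -0.03. RPS26 rose most, by 0.66 and 0.54, and RPL22L1 had the largest fall by the mean of both hairpins, at -0.51 and -0.27 (adjusted p 0.21 for the second). Of 76 nuclear subunits of the respiratory chain and ATP synthase, 16 rose and 6 fell, and 22 rose and 9 fell, with medians of 0.05 and 0.10. COX7C, a subunit of cytochrome c oxidase, was the only one called with both, at 0.90 and 0.96 (SE 0.09 each), and ATP5S fell by 0.36 and 0.22.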

How the data were processed

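RNA of 27 libraries was primed with random oligos, sequenced as paired ends, aligned to hg19 with STAR and assigned to RefSeq genes with Rsubread. The values the authors deposited are labelled FPKM but are whole multiples of 1 step per library, so they were treated as CPM, reads relative to a library total, and reads were recovered from the steps (100% of values whole within 0.01 of a step). Recovery is less certain for the third OCI-Ly1 control library and the first OCI-Ly1 library with shSIRT3-2, whose step is close to the smallest decimal in the file. Genes with at least 1 CPM in at least 3 fitted libraries were tested with limma 3.58.1 (R 4.3.3) on log2(CPM + 0.1), with a variance trend and Benjamini-Hochberg adjustment over all genes tested. Fold changes on this scale understate those of low genes. Code was tested on simulated data. The additive fit held terms for line and hairpin over 27 libraries, and lines, the interaction and the controls were fitted apart. edgeR 4.0.16 (TMM) was run on recovered reads. Other pseudocounts, filters, scalings, a replicate block and leaving out lines or libraries were tried as alternatives. Lengths and overlaps come from GENCODE 44 on hg19. Replicates of a group differed by more than sampling noise, with at least 7.34 times the chi-square of counting error.

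The members and the gene lists were chosen with earlier results of these data known. Genes named are SIRT3, members called over 3 lines, the 5 largest rises and falls by the mean of both hairpins, members called in the same direction in at least 2 of 6 single-line comparisons, the 5 smallest p of the interaction, the 3 largest in each direction between control lines, the 3 highest and 3 lowest control levels per length, untested members, and in related lists those called with both hairpins and the largest rise and fall. Others were named after their values were seen.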

Additional observations from a re-analysis of the deposited data

Results flagged for a closer look

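The response to the hairpins differed between the 3 lines in 23 of the 77 tested members by the F test of interaction terms (limma, adjusted p under 0.05 over all genes tested), and these are listed here with that adjusted p. Values were under 0.01 for MRPL36 (0.00011), MRPL10 (0.00091), MRPL9 (0.0012), MRPS14 (0.0029), MRPL37 (0.0064), MRPL16 (0.0085) and MRPL35 (0.0086). They were higher for MRPL43 (0.01), MRPS21 (0.011), MRPL45 (0.012), MRPL21 (0.012), MRPL24 (0.016), MRPL1 (0.022), MRPL27 (0.024) and MRPL48 (0.03). The last were MRPL51 (0.031), MRPS27 (0.031), MRPL3 (0.037), MRPL2 (0.037), MRPS22 (0.039), MRPS35 (0.042), MRPL15 (0.042) and MRPL42 (0.048). Across all genes 41.8% differed by the same test. An unadjusted p under 0.05 was found for 30 members and for 53.8% of all genes, and edgeR gave 24 members past its adjusted p, where 37.6% of all genes passed.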

How the results depend on the processing

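Over 3 lines, no log2 fold change that passed its adjusted p changed sign under the alternatives run, among SIRT3 and the members named by the rule. Several that did not pass changed sign, MRPL36 with both hairpins and MRPL49 with shSIRT3-2 among them. Single-line fold changes, genes of related lists and members named after their values were seen were not followed in this way. Of the checks of these genes over 3 lines, 2818 kept their side of the threshold, 109 fell short of it and 43 newly passed it. Members called with shSIRT3-1 over 3 lines, 2 in the report, were 1 under quantile normalization, with edgeR or without the line Karpas422, and 4 without OCI-Ly1. Without OCI-Ly1, 1 member was called with shSIRT3-2 and 1 with both hairpins. With shSIRT3-2, 13 members passed and the median was 0.0804 without Karpas422, and 17 passed with a median of -0.0532 without HBL1. Karpas422 with shSIRT3-2 gave 1 call with a pseudocount of 1 and 1 under quantile normalization, and Karpas422 with shSIRT3-1 gave 10 with edgeR. HBL1 with shSIRT3-2 gave 10 calls under median-ratio scaling and 8 with edgeR. Of all genes, edgeR called 15.4% in Karpas422 with shSIRT3-1, 24.0% in HBL1 with shSIRT3-2 and 14.4% over 3 lines with shSIRT3-1. For the other alternatives in this paragraph no share of all genes is given. The cause of these shifts was not tested.

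Leaving out 1 replicate number or 1 library at a time, the calls over 3 lines with shSIRT3-1 ranged from 1 to 6, and 0 stayed 0 with shSIRT3-2 and with both. The 1 call without replicate 3 and the 6 without replicate 1 were each beside 11.7% of all genes called. With shSIRT3-2, 12.4%, 7.69% and 13.2% of all genes were called without replicates 1, 2 and 3. Members that passed ranged from 13 to 37 with shSIRT3-1 and from 6 to 36 with shSIRT3-2, where 19.1% to 39.3% and 15.4% to 43.4% of all genes passed. Calls ranged from 2 to 8 and 0 to 7 in Karpas422, 0 to 9 and 0 to 0 in OCI-Ly1, and 1 to 13 and 0 to 7 in HBL1, for shSIRT3-1 and shSIRT3-2. Members differing between lines ranged from 0 to 30 and between hairpins from 13 to 22, where 2.71% to 48.0% and 15.6% to 33.0% of all genes differed. Control comparisons gave 11 to 13, 24 to 32 and 27 to 29 calls, where 46.4% to 50.4%, 47.3% to 53.0% and 48.0% to 54.3% of all genes were called. Leaving out a replicate number removes 9 of 27 libraries. Members that passed with both hairpins ranged from 2 to 16 higher and 0 to 8 lower.

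With a replicate block, 34 and 32 members passed with shSIRT3-1 and shSIRT3-2, 26 differed between lines, and in single lines 8 passed in OCI-Ly1 with shSIRT3-1, 1 with shSIRT3-2, and 28 in HBL1 with shSIRT3-2. A replicate block within each line, chosen after seeing the data, gave 35 differing between lines. No share of all genes is given for these block fits, so their counts are not read against all genes. Deviations of libraries with the same number in a line correlated at 0.32 on average (lowest 0.0144), and 23 of 27 libraries correlated best with their own number, a hint from the data and not from the design. With a correction for GC content and length together with a replicate block, a combination chosen after seeing the data, 16 members rose and 2 fell with both hairpins, where 9.5% and 9.10% of all genes did. The edgeR fit and the leaving out of single libraries were likewise added later. Precision is lowest where reads are fewest, as for MRPS24, which was not tested, and MRPL36, with 193 reads in 1 library.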
